A study of Mus musculus with 40 samples.

Results

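Intestinal stem cell and Wnt feedback genes were followed across duodenum, ileum and liver of mice after small bowel resection (SBR). The group holds 7 of the 15958 genes in the expression table, chosen by name for their roles: the stem cell genes *Lgr5*, *Olfm4*, *Ascl2* and *Smoc2* and the Wnt feedback genes *Axin2*, *Rnf43* and *Znrf3*. All 7 were found, and in the liver 3 of them, *Axin2*, *Rnf43* and *Lgr5*, were followed. Every mouse was a wild type C57BL/6 male, operated on at 8 weeks of age and given vehicle or WUSTL0717, a gut-restricted agonist of the liver X receptor, at 30 mg/kg each day for 7 weeks from the third week after surgery. The 3 groups were sham-operated mice given vehicle (3 duodenal, 3 ileal and 5 liver libraries), SBR mice given vehicle (4, 4 and 8) and SBR mice given WUSTL0717 (4, 4 and 5). The labels gave the resection as 50 to 60% of the small bowel and the methods of the study give a larger extent, the ileum was taken below the anastomosis, and the comparison of WUSTL0717 with vehicle was made only in resected mice. The labels did not say which libraries came from the same mouse, so p-values measure the spread between these libraries.

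The epithelium of the small intestine is renewed from stem cells at the base of the crypts, which depend on Wnt signalling. R-spondins bind receptors of the Lgr family and remove the ubiquitin ligases Rnf43 and Znrf3, which otherwise clear Frizzled Wnt receptors from the cell surface. Wnt signalling through beta-catenin switches on *Axin2*, *Rnf43* and *Znrf3*, each of which dampens the signal, as well as *Lgr5* and *Ascl2*. In the liver, *Axin2*, *Rnf43* and *Lgr5* are known as Wnt-dependent genes of hepatocytes around the central vein.

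Values were log2 TPM after a batch correction in which the intestinal libraries formed batch 1 and the liver libraries batch 2. Levels were therefore compared within the intestine or within the liver, and not between genes. Read totals were not given, so the depth is unknown; turned back from the log2 scale, the values summed to between 634149 and 879048 per library over the intestine and liver. Markers of Brunner glands and pancreas had a mean log2 value of 2.69 to 7.30 in the duodenal libraries and of -0.60 to -0.51 in the ileal ones. In the liver this mean was 6.90 in SBR vehicle library 7 and 2.17 to 2.44 in the other libraries. Stem cells are a small share of these whole tissue samples, in which fewer cells of a type and less RNA per cell cannot be told apart.

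The start regions of *Axin2* and *Rnf43* are shown because these 2 feedback genes differed most, and in opposite directions, between the regions of the intestine. Both genes lie on chromosome 11 of GRCm38. *Axin2* spans chr11:108920349-108950783 on the plus strand, and the RefSeq window printed first covers 250 bases before to 50 bases after its start (GRCm38.p6, chr11:108920099-108920398). *Rnf43* spans chr11:87662722-87735539 on the plus strand, and the window of the first of its 2 listed starts is chr11:87662837-87663136.
Axin2: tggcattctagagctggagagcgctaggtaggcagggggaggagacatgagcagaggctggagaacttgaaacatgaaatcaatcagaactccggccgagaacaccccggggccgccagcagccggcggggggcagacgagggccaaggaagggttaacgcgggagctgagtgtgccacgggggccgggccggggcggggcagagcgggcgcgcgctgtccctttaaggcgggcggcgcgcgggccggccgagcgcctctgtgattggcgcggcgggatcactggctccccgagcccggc
Rnf43: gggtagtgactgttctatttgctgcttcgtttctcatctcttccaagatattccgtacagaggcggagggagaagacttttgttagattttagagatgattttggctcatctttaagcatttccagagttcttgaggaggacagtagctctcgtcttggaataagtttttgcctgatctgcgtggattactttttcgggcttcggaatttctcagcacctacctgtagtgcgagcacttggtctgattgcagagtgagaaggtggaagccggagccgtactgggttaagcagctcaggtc
GC content was 70% in the *Axin2* window and 46.7% in that of *Rnf43*. The TCF/LEF core letters CTTTGA, or TCAAAG on the other strand, were searched for. They were in neither window, nor in the 3 further windows listed for the members (the second *Rnf43* start, *Ascl2* at chr7:142969215-142969514 and *Olfm4* at chr14:80000052-80000351), and in 16% of all 32851 windows of the same length. Among the other members, *Lgr5* lies at chr10:115450311-115587780, *Smoc2* at chr17:14279506-14404790 and *Znrf3* at chr11:5276324-5444847.

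The first comparison asked how the genes differed between the regions of the unresected intestine. In sham mice, 6 of the 7 genes were lower in the duodenum than in the ileum, and *Rnf43* was higher, where 74.3% of all genes tested were lower. *Rnf43*, a ubiquitin ligase that removes Wnt receptors, was listed at log2 values of 4.87, 4.73 and 5.85 in the sham duodenum and of 2.55, 3.29 and 3.10 in the sham ileum. The groups did not overlap, and the duodenum was 4.51-fold higher (log2 fold change of 2.17, SE 0.48, limma adjusted p = 0.00391). *Axin2*, a scaffold of the complex that degrades beta-catenin, was listed at 3.44, 2.88 and 4.25 in the duodenum and at 4.53, 5.23 and 5.14 in the ileum. It was 2.72-fold lower in the duodenum (log2 fold change of -1.45, SE 0.36, limma adjusted p = 0.0097). *Lgr5*, an R-spondin receptor that marks crypt base stem cells, had values of 1.18, 1.22 and 1.79 in the duodenum and of 2.40, 2.41 and 2.45 in the ileum. It was 2.04-fold lower in the duodenum (log2 fold change of -1.03, SE 0.29, limma adjusted p = 0.0191).

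These 3 genes were called of the 7, against 14.6% of 15923 genes tested. *Smoc2*, which encodes a secreted matrix protein of crypt base cells, did not overlap either (2.83 to 3.45 against 3.90 to 4.10) but was not called (log2 fold change of -0.87, SE 0.50, limma adjusted p = 0.238). Every duodenal library lay below every ileal one for 3 members, a pattern of 30.8% of all genes tested, and above for *Rnf43*, a pattern of 7.13%. *Olfm4*, a secreted glycoprotein of stem cells, had a log2 fold change of -0.95 (SE 0.37, limma adjusted p = 0.0895). Values for *Ascl2*, a transcription factor of stem cell identity, and *Znrf3*, the paralogue of *Rnf43*, were -0.40 (SE 0.26) and -0.53 (SE 0.40), with limma adjusted p-values of 0.292 and 0.367. The median over all genes tested was -0.52, so *Znrf3* and *Ascl2* lay at -0.02 and 0.12 relative to it, *Lgr5* at -0.51, *Axin2* at -0.93 and *Rnf43* at 2.69. With 3 libraries a group, an exact two-sided permutation test cannot give a p below 0.1, and *Rnf43*, *Axin2*, *Lgr5* and *Smoc2* all reached that value.

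Several of these calls were lost with fewer libraries, another scaling or another test. *Rnf43* remained called without any of the 6 sham libraries in turn (limma adjusted p of 0.00669 to 0.0274). *Axin2* lost its call without ileal sham library 2 (log2 fold change of -1.31, adjusted p = 0.0557) or duodenal sham library 2 (-1.13, adjusted p = 0.0633). *Lgr5* lost it without duodenal sham library 1 or 2 or ileal sham library 2 or 3 (adjusted p of 0.0531 to 0.0822), while its log2 fold change stayed between -1.03 and -0.92. With each library centred on its median, the log2 fold change was -0.99 for *Axin2* (limma adjusted p = 0.0616) and -0.57 for *Lgr5* (limma adjusted p = 0.138). After quantile normalization *Lgr5* was not called either (-0.64, limma adjusted p = 0.0839). In an unmoderated test of the same values the adjusted p was 0.0674 for *Rnf43*, 0.145 for *Axin2* and 0.068 for *Lgr5*, so that no member was called. With only the sham groups in limma it was 0.0787 for *Axin2* and 0.055 for *Lgr5*, and *Rnf43* was called. Other calls were gained. *Olfm4* was called without ileal sham library 3 (-1.29, limma adjusted p = 0.0422). With library weights, limma also called *Olfm4*, *Ascl2* and *Smoc2* (adjusted p of 0.0194, 0.0172 and 0.0212), among 5549 genes called in all.

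After resection the regional order was the same for each of the 7 genes, given here as a description. In SBR vehicle mice, every duodenal library lay below every ileal library for 6 members, a pattern of 37.6% of genes tested, and above for *Rnf43*, a pattern of 5.77%. In mice given WUSTL0717 the same held for 6 members (41.4% of genes tested) and for *Rnf43* (6.37%). Over the 3 groups, *Axin2* thus lay at 2.39 to 4.25 in the duodenum and at 4.53 to 5.66 in the ileum, and *Lgr5* at 0.49 to 1.79 and 2.01 to 3.02.

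The order of the group means was read per gene, on the log2 scale and with SD. For *Lgr5* it was the SBR vehicle ileum (2.72 ± 0.29, n = 4), the sham ileum (2.42 ± 0.03, n = 3), the treated ileum (2.40 ± 0.42, n = 4), the sham duodenum (1.40 ± 0.34, n = 3), the SBR vehicle duodenum (0.90 ± 0.17, n = 4) and the treated duodenum (0.81 ± 0.34, n = 4). For *Axin2* the treated ileum stood first (5.28 ± 0.43), followed by the SBR vehicle ileum (5.12 ± 0.19), the sham ileum (4.97 ± 0.38), the sham duodenum (3.52 ± 0.69), the SBR vehicle duodenum (3.08 ± 0.09) and the treated duodenum (2.75 ± 0.41). Neighbours in these orders overlapped within a region, except the sham and SBR vehicle duodenum for *Lgr5*, and the step between regions was free of overlap for both genes. For *Znrf3* the duodenal means were 3.14 ± 0.50, 1.71 ± 0.38 and 1.89 ± 0.61 in sham, SBR vehicle and treated mice, and the ileal means were 3.67 ± 0.37, 3.74 ± 0.31 and 3.41 ± 0.62. For *Rnf43* they were 5.15 ± 0.61, 5.29 ± 0.22 and 4.93 ± 0.66 in the duodenum and 2.98 ± 0.38, 3.53 ± 0.71 and 3.42 ± 0.73 in the ileum, all overlapping within a region. For *Znrf3* the sham duodenum overlapped the ileal groups and not the SBR vehicle duodenum, and for *Rnf43* the sham duodenum overlapped no ileal group. In the same group order, *Olfm4* had means of 3.16, 1.93 and 2.45 in the duodenum and of 4.11, 3.95 and 3.71 in the ileum, *Ascl2* of 1.13, 0.57 and 0.61 and of 1.54, 1.75 and 1.90, and *Smoc2* of 3.10, 1.89 and 2.16 and of 3.96, 4.02 and 3.86.

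**Figure D1:**
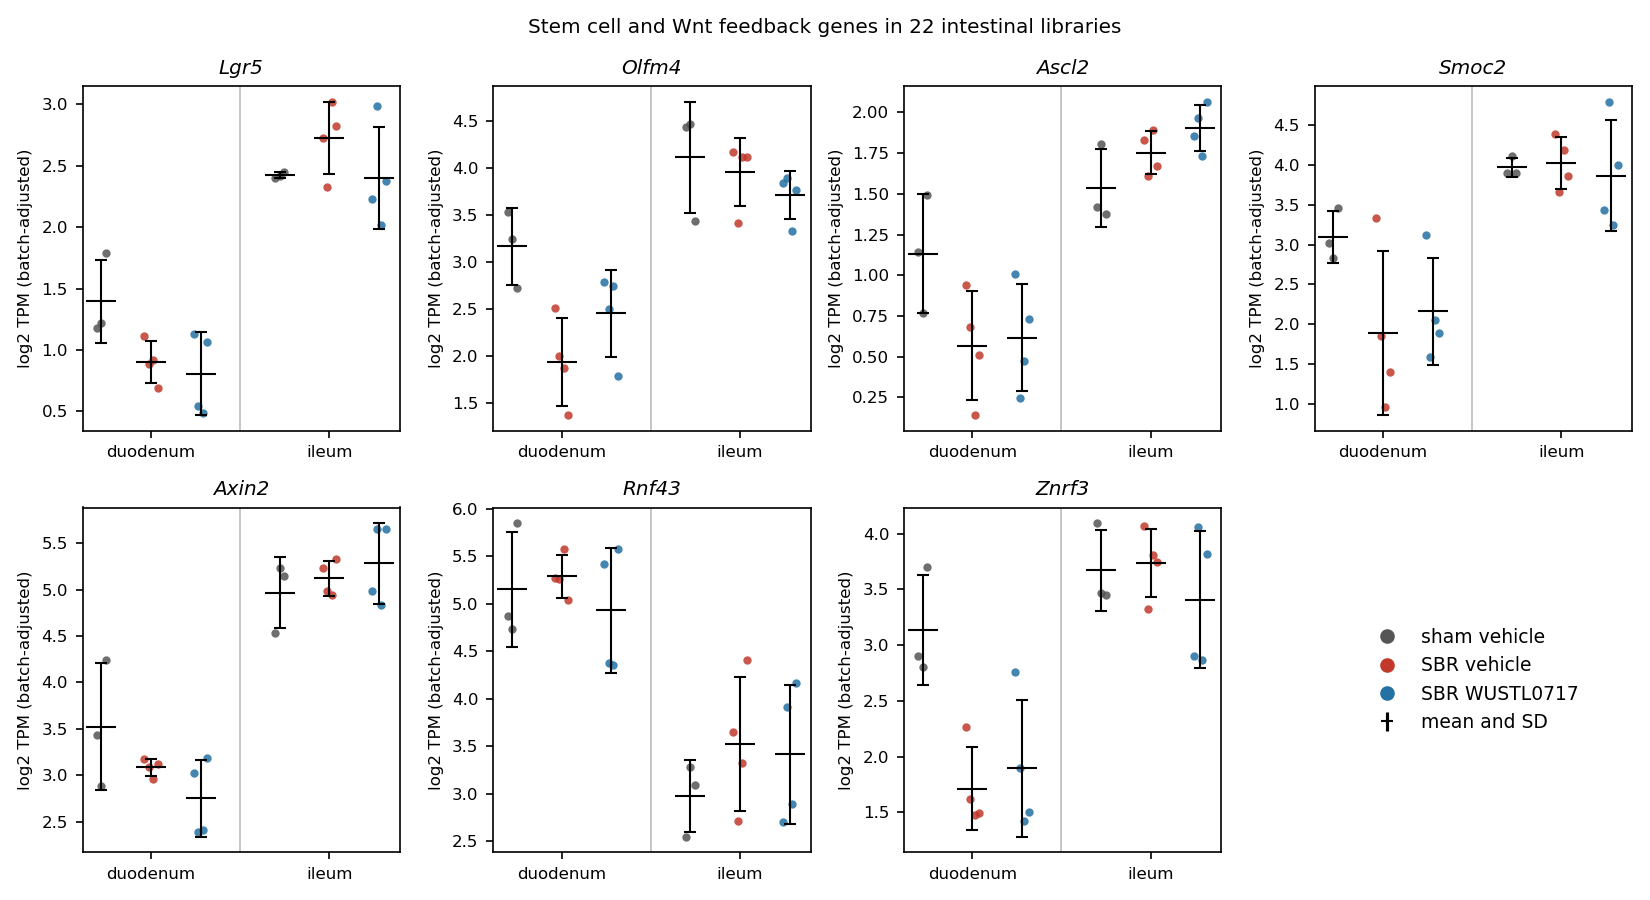
Log2 TPM (vertical axis) of each gene in each of the 22 intestinal libraries (points), by region and group, with the group mean and SD in black. *Rnf43* sits higher in the duodenum, the other genes sit higher in the ileum, and the mean of *Znrf3* in the duodenum is highest in the sham group.

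The other gene lists are read against the 14.6% of all genes called between the sham regions and the median of -0.52. Among 17 other stem cell and crypt base genes in the table, 3 were called lower and 1 higher in the sham duodenum, with a median log2 fold change of -0.50, close to that of all genes. *Lgr4*, a second R-spondin receptor, was lower (log2 fold change of -2.02, SE 0.37), as were *Aqp4* (-1.36, SE 0.29) and *Cdk6* (-1.21, SE 0.38). *Hopx* was higher (1.44, SE 0.36). Of 17 other Wnt target and feedback genes, the cyclin genes *Ccnd1* (-2.83, SE 0.46) and *Ccnd2* (-1.77, SE 0.36) were called lower, and *Sp5* (1.78, SE 0.37) and *Notum*, which encodes a secreted Wnt inhibitor (1.88, SE 0.54), were called higher. Of 25 Wnt receptors and transducers, 5 were called lower and 1 higher. The receptor *Fzd5* (-1.58, SE 0.33), the corepressor *Tle3* (-1.76, SE 0.36) and *Lgr4* were among the lower ones, and the receptor *Fzd4* (1.95, SE 0.52) was the higher one. Of 10 ligand, R-spondin and secretion genes, *Porcn*, which encodes the enzyme that acylates Wnt proteins, was called higher in the duodenum (1.43, SE 0.34). Adjusted p-values of these called genes were at most 0.0386 by limma. Of 12 Paneth cell markers, the neighbours of stem cells in the crypt, 10 were called lower in the duodenum, with a median of -3.31, and 1 of 17 proliferation markers was called lower, with a median of -0.87.

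The second comparison asked what resection did in the duodenum. None of the members was called there, as for all other genes: 0 of 15093 genes passed an adjusted p under 0.05 in limma (0%), whereas 2426 genes (16.1%) had an unadjusted p under 0.05, 515 of them higher and 1911 lower after SBR. Without SBR vehicle library 1, limma called 589 genes and none of the 5 members that passed the filter (adjusted p of 0.0504 for *Znrf3*, 0.0506 for *Smoc2* and 0.0536 for *Olfm4*). The median log2 fold change over all genes was -0.36. *Znrf3* had the smallest p among the members. It was listed at 2.90, 2.80 and 3.70 in sham mice, at 2.27, 1.62, 1.47 and 1.49 in SBR vehicle mice and at 2.76, 1.90, 1.42 and 1.50 with WUSTL0717. The SBR vehicle libraries all lay below the sham libraries. The mean was 2.68-fold lower (log2 fold change of -1.42, SE 0.40, limma adjusted p = 0.271), and the exact two-sided permutation p was 0.0286, the smallest that 4 against 3 libraries can give.

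*Olfm4* was listed at 3.53, 3.24 and 2.72 in sham mice, at 2.50, 2.00, 1.87 and 1.37 in SBR vehicle mice and at 2.78, 2.49, 2.74 and 1.78 with WUSTL0717. Its SBR vehicle libraries also lay below every sham library (2.34-fold, log2 fold change of -1.23, SE 0.38, limma adjusted p = 0.274, exact permutation p = 0.0571). *Lgr5* had SBR vehicle values of 1.12, 0.88, 0.91 and 0.69, again below the sham values, with a log2 fold change of -0.49 (SE 0.26, limma adjusted p = 0.347, exact permutation p = 0.0571). *Lgr5* passed the filter on low values, a mean of 1 or more, only through the sham libraries, since its mean was 1.00 over the duodenal libraries and 0.90 in SBR vehicle mice, and it dropped out of the test in 4 of the 7 fits that left out a library. Its values are therefore a description. All SBR vehicle libraries below all sham libraries was a pattern of 6.24% of all genes tested, *Znrf3* and *Olfm4* among them.

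*Smoc2* was listed at 3.33, 1.86, 0.97 and 1.40 in SBR vehicle mice and at 3.01, 2.83 and 3.45 in sham mice. Library 1 of the SBR vehicle group lay among the sham libraries and the other libraries lay below them (log2 fold change of -1.21, SE 0.54, limma adjusted p = 0.301). The same library had the highest *Znrf3*, *Olfm4*, *Lgr5* and *Ascl2* of its group. *Ascl2* did not pass the filter on low values, with a mean of 0.74 over the duodenal libraries, and had a log2 fold change of -0.57 (SE 0.25) in a fit with no filter (limma adjusted p = 0.302). *Axin2* values of 3.17, 3.09, 2.96 and 3.12 after SBR lay within the sham range of 2.88 to 4.25 (log2 fold change of -0.44, SE 0.38, limma adjusted p = 0.551). *Rnf43* was the exception in sign, at 5.27, 5.27, 5.58 and 5.04 after SBR, with a log2 fold change of 0.14 (SE 0.45, limma adjusted p = 0.893), which turned to -0.07 without duodenal sham library 2. Relative to the median of all genes, the differences were -1.06 for *Znrf3*, -0.87 for *Olfm4*, -0.85 for *Smoc2*, -0.13 for *Lgr5*, -0.08 for *Axin2* and 0.50 for *Rnf43*. With library weights, which give noisier libraries less influence, limma called 3 members lower, *Olfm4*, *Smoc2* and *Znrf3* (adjusted p of 0.0248, 0.0393 and 0.0266), among 2497 genes called in all.

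After SBR, 70% of all genes tested in the duodenum were lower than in sham mice. Of 15 other stem cell and crypt base genes tested, 14 were lower (median -0.83), 0 were called by limma and 8 had an unadjusted p under 0.05, all lower. Examples were *Slc12a2* (-1.22, SE 0.39), *Prom1* (-1.72, SE 0.56), the receptor gene *Tnfrsf19* (-1.17, SE 0.36) and *Lrig1*, which encodes a brake on growth factor receptors (-1.70, SE 0.57), each with a limma adjusted p of 0.274. Of 17 other Wnt targets, 16 were lower (median -0.74), 0 were called and 6 had an unadjusted p under 0.05, *Notum* (-1.79, SE 0.61) and *Sfrp1*, which encodes a secreted Wnt antagonist (-1.05, SE 0.34), among them. All 8 ligand and secretion genes tested were lower (median -0.55, 0 called), with an unadjusted p under 0.05 for *Wls*, the Wnt carrier (-0.62, SE 0.26). Of 24 receptors and transducers, 14 were lower and 10 higher (median -0.14, 0 called, 2 lower with an unadjusted p under 0.05).

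Of the marker lists of other cells, 0 genes were called by limma. The mean log2 value of the proliferation markers was 2.67 to 2.95 in the sham duodenum and 1.21 to 2.67 after SBR, where it was 2.67 in library 1. All 16 tested proliferation markers were lower after SBR (median -1.05, 0 called, 13 with an unadjusted p under 0.05). Paneth cell markers had a mean of 4.11 to 4.69 in sham mice and of 2.80 to 3.38 after SBR, with 11 of 12 lower. Mesenchymal and muscle markers had a mean of 3.42 to 4.02 in sham mice and of 2.38 to 3.99 after SBR, again highest in library 1. Brunner gland and pancreas markers were lower for 13 of 13 (median -1.70, 0 called, 0 with an unadjusted p under 0.05). Absorptive enterocyte markers were on the other side of 0, with 11 of 12 higher (median 0.72, 0 called, 5 with an unadjusted p under 0.05) and a mean of 5.96 to 7.11 in sham mice and of 7.19 to 7.73 after SBR. The part of these cells in the values of the members was not tested.

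**Figure D2:**
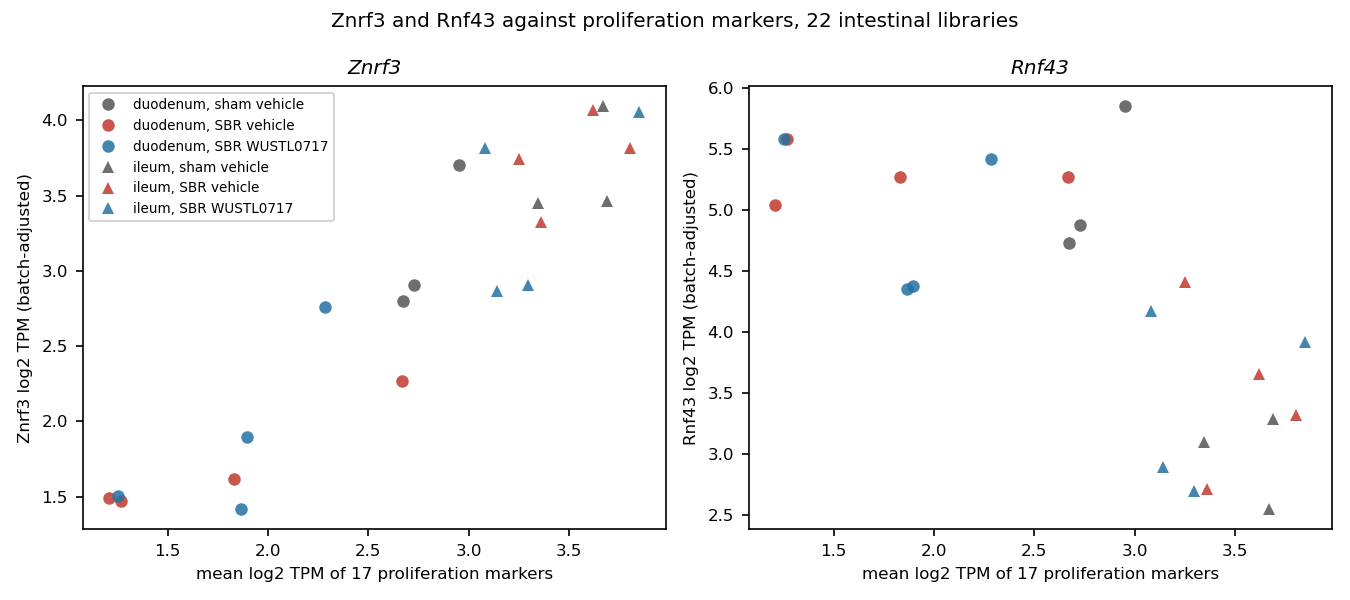
Log2 TPM of *Znrf3* (left) and *Rnf43* (right) against the mean log2 TPM of 17 proliferation markers in each of the 22 intestinal libraries, by region and group. Duodenal SBR vehicle libraries with marker means of 1.21 to 1.83 had *Znrf3* values of 1.47 to 1.62 and *Rnf43* values of 5.04 to 5.58.

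In the ileum, resection gave no call among the members, against 0.349% of 15772 genes, and 0 of the 7 had an unadjusted p under 0.05 in limma. *Rnf43* had the largest difference, with values of 3.66, 2.71, 3.32 and 4.41 after SBR and of 2.55, 3.29 and 3.10 in sham mice. The groups overlapped (log2 fold change of 0.55, SE 0.45, limma adjusted p = 0.892). *Lgr5* was listed at 2.73, 2.33, 3.02 and 2.82 after SBR, of which 3 libraries lay above the narrow sham range of 2.40 to 2.45 and 1 below it (log2 fold change of 0.30, SE 0.27, limma adjusted p = 0.921). *Axin2* (0.15, SE 0.30), *Ascl2* (0.22, SE 0.22), *Smoc2* (0.06, SE 0.36), *Znrf3* (0.07, SE 0.35) and *Olfm4* (-0.16, SE 0.32) were each within about 1 SE of 0. *Olfm4* lay at 4.17, 3.41, 4.12 and 4.12 after SBR and at 4.44, 4.47 and 3.43 in sham mice, so that 1 library in each group lay well below the rest. Of the 17 other stem cell genes, 13 were higher and 4 lower (median 0.15, 0 called), and of the 17 other Wnt targets, 11 were higher and 6 lower (median 0.13, 0 called).

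Whether the effect of SBR differed between regions was tested as an interaction over the 22 libraries. The effect in the ileum minus that in the duodenum was 1.49 for *Znrf3* (SE 0.53), 1.26 for *Smoc2* (SE 0.66), 1.07 for *Olfm4* (SE 0.49), 0.79 for *Lgr5* (SE 0.38) and 0.78 for *Ascl2* (SE 0.35). None of the 7 was called (limma adjusted p of 0.297 to 0.778), against 0.0754% of 15923 genes, and 4 had an unadjusted p under 0.05, against 13.8% of genes. Of these 4, *Ascl2* did not pass the filter in the duodenum alone and *Lgr5* passed it only through the sham libraries, so the interaction values of both are descriptions. The median of this difference over all genes was 0.44.

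**Figure D3:**
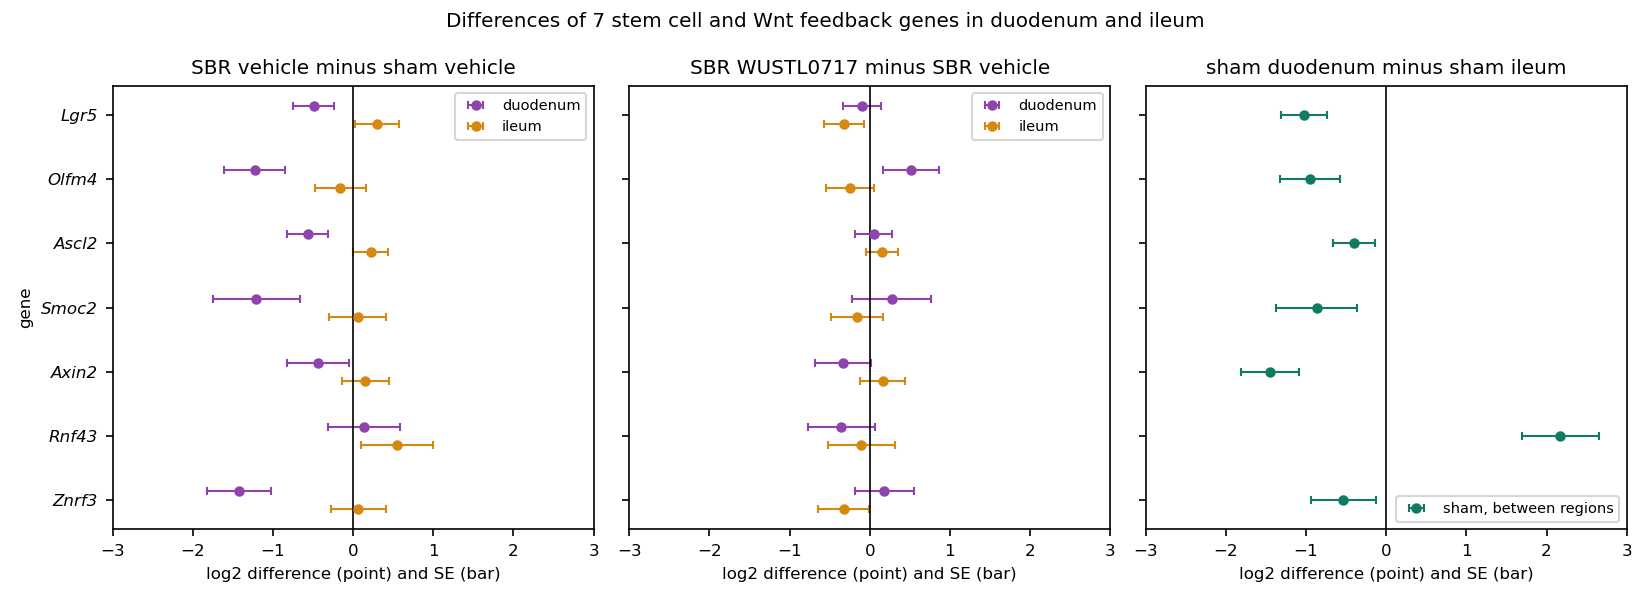
Log2 differences (points) with their SE (bars) for each gene: SBR vehicle minus sham vehicle and SBR WUSTL0717 minus SBR vehicle in duodenum and ileum, and sham duodenum minus sham ileum. In the middle panel the points run from -0.36 to 0.51.

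The third comparison asked what WUSTL0717 did in resected mice. It shares the SBR vehicle libraries with the comparison above. In the duodenum 0 members were called by limma and 0 had an unadjusted p under 0.05, against 0.258% of genes called, and all their adjusted p-values were 1. The largest difference was that of *Olfm4*, with 2 treated libraries above every vehicle library (log2 fold change of 0.51, SE 0.35, exact permutation p = 0.2). *Rnf43* was listed at 5.42, 4.37, 4.35 and 5.58 with WUSTL0717, of which 2 libraries lay below all vehicle libraries (log2 fold change of -0.36, SE 0.42). *Axin2* was listed at 3.02, 2.39, 2.41 and 3.18, with the same libraries 2 and 3 low (-0.33, SE 0.35). *Smoc2* (0.27, SE 0.50), *Znrf3* (0.18, SE 0.37), *Lgr5* (-0.09, SE 0.24) and, with no filter, *Ascl2* (0.05, SE 0.23) lay within about 1 SE of 0. Among the other Wnt targets, *Notum* had the smallest p, with a log2 fold change of 1.79 (SE 0.57, limma adjusted p = 0.496).

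In the ileum 0 members were called and 0 had an unadjusted p under 0.05 in limma, against 0.0697% of genes called. *Lgr5* was listed at 2.23, 2.99, 2.01 and 2.37 with WUSTL0717 and *Znrf3* at 2.90, 4.06, 2.86 and 3.81, with library 2 the highest for both. Their log2 fold changes against SBR vehicle were -0.32 (SE 0.25) and -0.33 (SE 0.32), with limma adjusted p-values of 0.913 and 0.937. *Olfm4* (-0.25, SE 0.29), *Smoc2* (-0.16, SE 0.33), *Rnf43* (-0.11, SE 0.42), *Ascl2* (0.15, SE 0.20) and *Axin2* (0.16, SE 0.28) were smaller. All 12 Paneth cell markers were lower with WUSTL0717 in the ileum (median -0.72, 0 called, 4 with an unadjusted p under 0.05). Of all genes tested, 49.6% were lower and 6.87% had an unadjusted p under 0.05. Turned back from the adjusted log2 scale, the Paneth cell markers summed to 7114 to 18840, against 16290 to 29509 with vehicle. Among the other Wnt targets, *Ccnd1* (-0.92, SE 0.26, limma adjusted p = 0.463) and *Myc* (-1.23, SE 0.40, limma adjusted p = 0.56) had the smallest p. In the test of whether the effect of WUSTL0717 differed between regions, limma called 0 members (adjusted p of 1 for each, 0 with an unadjusted p under 0.05), against 0.0251% of genes called.

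Against sham mice, treated SBR mice had 0 members called in the duodenum, against 0.802% of genes. Apart from *Lgr5*, only *Znrf3* among the members had an unadjusted p under 0.05 in limma (log2 fold change of -1.24, SE 0.40, adjusted p = 0.197). Of all genes, 16.9% had such a p, and the median over all genes was -0.32. All treated libraries lay below the sham libraries for *Znrf3*, a pattern of 12.8% of genes tested. The same held for *Lgr5* (-0.59, SE 0.26, adjusted p = 0.276), given as a description because it passed the filter only through the sham libraries. Side by side with the vehicle comparison, which shares the sham libraries, *Znrf3* had -1.24 and -1.42, *Lgr5* -0.59 and -0.49, *Olfm4* -0.71 and -1.23, *Smoc2* -0.93 and -1.21, *Axin2* -0.77 and -0.44, *Ascl2* -0.52 and -0.57 with no filter, and *Rnf43* -0.22 and 0.14. In the ileum, 0 members were called against sham and 0 had an unadjusted p under 0.05, while limma called 2.17% of genes. The log2 fold changes there ran from -0.41 for *Olfm4* (SE 0.32) to 0.44 for *Rnf43* (SE 0.45). Among 7 genes of regenerating crypts, the growth factor genes *Areg* (2.48, SE 0.50, adjusted p = 0.0278) and *Ereg* (1.60, SE 0.26, adjusted p = 0.0109) rose and *Il33* (-1.85, SE 0.29, adjusted p = 0.00962) fell in that comparison by limma.

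With values centred within each region, 20 of the 21 pairs of members were positively correlated over the 22 libraries, with a median Pearson r of 0.64, from -0.10 for *Olfm4* with *Rnf43* to 0.84 for *Smoc2* with *Znrf3*. The genes most like *Lgr5* by this measure were *Rpap3* (r = 0.93), *Man2c1* (r = 0.89) and *Msi2*, which encodes an RNA-binding protein (r = 0.88), and those most like *Axin2* were *Klhdc8b* (r = 0.86), *Ajuba* (r = 0.85) and *Swsap1* (r = 0.85). The libraries share their surgery and treatment groups, and the values were not centred per library, where medians ran from 2.13 to 3.09 in the duodenum. The share of positive pairs among other genes was not computed, so these values are descriptions.

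In the liver, batch 2, *Axin2* and *Rnf43* rose after resection. *Axin2* was listed at 3.51 to 3.91 (median 3.70) in 5 sham livers, at 4.24 to 5.42 (median 4.71) in 8 SBR vehicle livers and at 3.56 to 5.02 (median 4.65) in 5 treated livers. Every SBR vehicle liver lay above every sham liver, a pattern of 15.6% of genes tested. The rise was 2.27-fold (log2 fold change of 1.18, SE 0.22, limma adjusted p = 0.000253), with an exact two-sided permutation p of 0.000777, the smallest that 8 against 5 libraries can give. *Rnf43* was listed at 4.25 to 4.75 (median 4.61) in sham livers and at 4.69 to 5.44 (median 4.86) after SBR, where 7 of 8 livers lay above all sham livers. It was 1.30-fold higher (log2 fold change of 0.38, SE 0.13, limma adjusted p = 0.0206). *Lgr5* was listed at 1.88 to 2.14 (median 1.97) in sham livers and at 1.63 to 2.43 (median 2.32) after SBR. SBR vehicle library 2 lay below every sham liver and the other 7 above them, and the gene was not called (0.26, SE 0.12, limma adjusted p = 0.0952).

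These 2 calls of 3 stand beside 41.9% of 15901 genes called, 5953 higher and 710 lower, and a median over all genes of 0.25. Relative to that median, the differences were 0.94 for *Axin2*, 0.14 for *Rnf43* and 0.01 for *Lgr5*. With each library centred on its median, *Axin2* remained called, *Rnf43* had a log2 fold change of 0.08 (limma adjusted p = 0.624) and *Lgr5* one of -0.05. *Rnf43* was also not called after quantile normalization (0.14, adjusted p = 0.382) or without liver sham library 2 (0.31, adjusted p = 0.0782). Without SBR vehicle library 7, which held Brunner gland and pancreas markers and the highest *Axin2* and *Rnf43* values, the log2 fold changes were 1.10 (limma adjusted p = 0.000603) and 0.31 (limma adjusted p = 0.0354). Without SBR vehicle library 2, *Lgr5* was called (0.34, limma adjusted p = 0.00271).

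**Figure D4:**
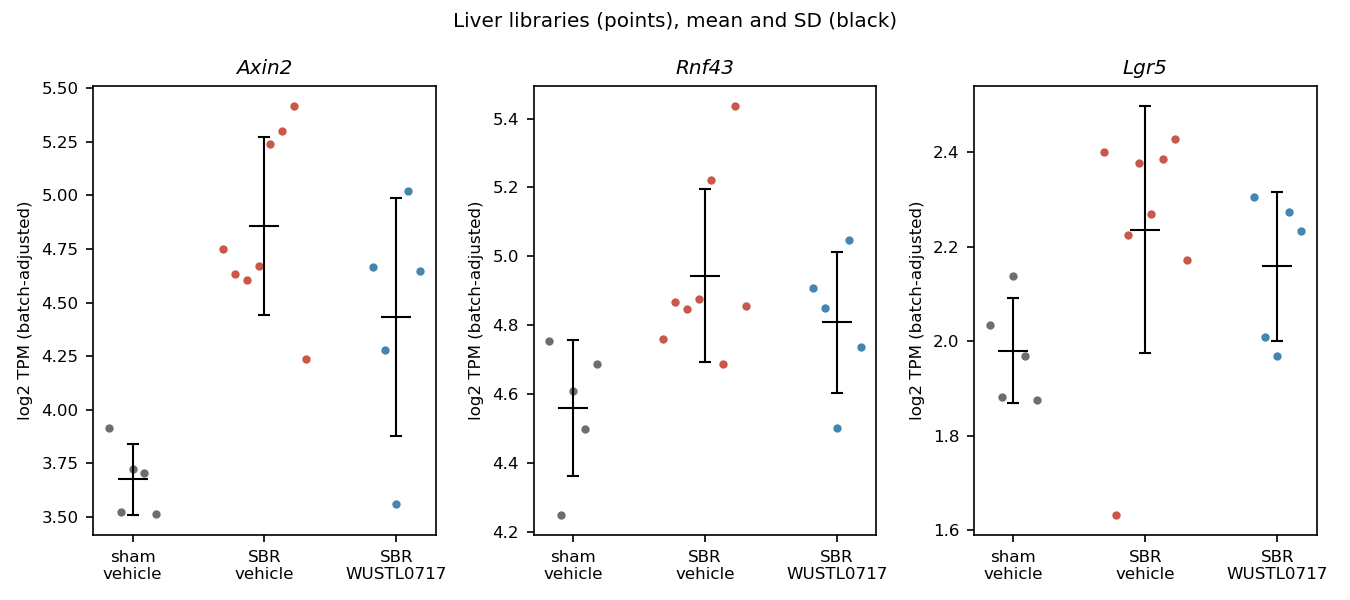
Log2 TPM of *Axin2*, *Rnf43* and *Lgr5* in each liver library (points) by group, with the mean and SD in black. For *Axin2* the 8 SBR vehicle libraries lie at 4.24 to 5.42, above the 5 sham libraries at 3.51 to 3.91.

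Between WUSTL0717 and vehicle after SBR, 0 of the 3 genes were called in the liver and 0 had an unadjusted p under 0.05 in limma, against 4.1% of genes called. The log2 fold changes were -0.42 for *Axin2* (SE 0.22, adjusted p = 0.335), -0.14 for *Rnf43* (SE 0.13, adjusted p = 0.673) and -0.08 for *Lgr5* (SE 0.12, adjusted p = 0.831), and the groups overlapped for each. Against sham livers, *Axin2* was 1.69-fold higher in treated SBR livers (log2 fold change of 0.76, SE 0.24, limma adjusted p = 0.026), with 4 of 5 treated livers above all sham livers. It was 1 call of the 3 genes, against 28.8% of genes called. This call was lost on leaving out any of 5 libraries in turn, sham library 2 or 5 or treated library 1, 4 or 5 (limma adjusted p of 0.0577 to 0.0893), and on centring each library (0.46, adjusted p = 0.137). *Rnf43* (0.25, SE 0.14, limma adjusted p = 0.175) and *Lgr5* (0.18, SE 0.13, limma adjusted p = 0.301) were not called.

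Other Wnt genes of the liver are read against the 41.9% of all genes called after SBR and the median of 0.25. Of 17 other Wnt targets, 14 were called higher after SBR and 0 lower, with a median of 0.93. They included *Ccnd1*, a driver of entry into the cell cycle (2.64, SE 0.20, limma adjusted p = 2.87e-08), *Myc* (2.52, SE 0.24), *Ccnd2* (1.17, SE 0.13) and *Sox9*, a transcription factor of bile duct cells (1.82, SE 0.18). Of 10 ligand, R-spondin and secretion genes, 4 were called higher, a share near that of all genes: *Wnt5a* (1.11, SE 0.13), *Wnt4* (1.21, SE 0.15), *Wls* (0.92, SE 0.15) and *Rspo3*, an R-spondin (0.53, SE 0.14). Of 25 receptors and transducers, 15 were called higher, with *Fzd1* (1.15, SE 0.12) and *Lrp5* (0.66, SE 0.12) among them, and 2 lower, one of them the R-spondin receptor *Lgr4* (-0.53, SE 0.10).

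Genes typical of hepatocytes near the central vein moved in both directions. Of 18 pericentral genes, 2 were called higher and 7 lower after SBR (median -0.23), against 41.9% of all genes called in either direction, with *Cyp2e1*, a detoxifying cytochrome (-0.92, SE 0.18), and *Oat* (-0.91, SE 0.22) lower and *Slc13a3* (0.72, SE 0.17) higher. Of 14 periportal genes, 11 were called lower and 0 higher (median -0.46), such as *Hal* (-1.60, SE 0.20) and *Cyp2f2* (-1.11, SE 0.16). Markers of other cells rose beside *Axin2* in the SBR livers: all 7 cholangiocyte markers (mean of 3.17 to 3.86 in sham and 5.03 to 5.76 in SBR vehicle livers), 16 of 17 proliferation markers (2.23 to 2.40 and 3.08 to 4.00) and 9 of 13 mesenchymal and muscle markers (3.44 to 3.97 and 4.48 to 5.21) were called higher. Their part in the values of *Axin2* and *Rnf43* was not tested. With WUSTL0717, where 4.1% of all genes were called, 2 of the 17 other Wnt targets were called lower than with vehicle, *Sox9* (-0.95, SE 0.18, limma adjusted p = 0.0092) and *Ccnd2* (-0.49, SE 0.13, limma adjusted p = 0.0381), as were 5 of 7 cholangiocyte markers, one of which is *Sox9*. Of the periportal genes, 4 were called higher with WUSTL0717 and 0 lower.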

How the data were processed

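RNA sequencing of 40 libraries (11 duodenum, 11 ileum, 18 liver) was used. Per the labels and the methods of the study, the authors removed ribosomal RNA, aligned reads to GRCm38 with STAR 2.7.9a, counted them per gene with featureCounts 2.0.3 on Ensembl release 101, normalized them with edgeR and corrected them with ComBat for batch. They deposited log2 TPM values from -1.69 to 18.42. The offset added before taking log2 is not given in the sources used here. ComBat rescales each gene, so fold changes are on the adjusted log2 scale and may differ from those of the reads. The number of reads is unknown, which leaves the precision of low values unknown.

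Genes whose log2 values averaged 1 or more in a tissue entered limma 3.58.1 (R 4.3.3), with a variance trend, all 3 groups of the tissue in the fit and Benjamini-Hochberg adjustment over all genes tested. Calls had an adjusted p under 0.05. Differences between regions and interactions were fitted on the 22 intestinal libraries in 6 groups. Single members were also compared with exact two-sided permutation tests (Python 3.11.15, numpy 2.4.6, pandas 2.3.3), and figures were drawn with matplotlib 3.10.9. The fits were tested on simulated data in which 200 genes were changed by 2 log2 units. Limma called 32 to 46.5% of these genes in the duodenum and 57.5 to 68.5% in the ileum. The share was 56% between the sham regions, 29% for the SBR interaction, 23% for the WUSTL0717 interaction and 98 to 99% in the liver. A lack of calls in the intestine is therefore no sign of a lack of change.

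The members, gene lists and tests were chosen with earlier results of these data known. Genes named were the members, the 3 genes most correlated with *Lgr5* and with *Axin2*, and at most 4 genes of a list, those called or else with the smallest p; cell type markers were described only as lists, apart from *Sox9*, which is on several lists. Alternatives were no filter or a filter at 3, an offset of 5, median centring, quantile normalization, library weights, a replicate block, an unmoderated test, only the compared groups, an unadjusted p under 0.05 with a fold change of at least 2, and leaving out each library. Positions were taken from GENCODE M21 and start regions from RefSeq (GRCm38.p6); 4 of the 7 members matched a start region.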

Additional observations from a re-analysis of the deposited data

Results flagged for a closer look

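Over 37 combinations of a gene and a group of 4, 5 or 8 libraries, 1 library stood apart from the rest of its group in 2 cases, where chance gives about 1 in 20. *Lgr5* was listed at 1.63 in liver SBR vehicle library 2, with the other 7 livers of the group at 2.17 to 2.43, and the gap was 0.677 of the range of the group. *Olfm4* was listed at 3.41 in ileal SBR vehicle library 2, with the other 3 libraries at 4.12 to 4.17, and the gap was 0.926 of the range. Markers of proliferation in that ileal library had a mean log2 value of 3.36, within the 3.25 to 3.80 of its group.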

How the results depend on the processing

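Of the gene differences of the report, 69 were recomputed under the alternatives in which the gene was tested, with 550 values of the same direction and side of the threshold, 13 past it only before, 11 past it only after and 15 of the opposite sign. The cause was not tested for any of these. Library weights moved the number of members called from 0 to 3 for SBR against sham in the duodenum, from 0 to 1 for WUSTL0717 against sham there, from 1 to 2 for that comparison in the liver, from 2 to 3 for SBR against sham in the liver, from 3 to 6 between the sham regions and from 0 to 2 for the regional difference of the SBR effect. With these weights limma called 2497, 1124, 8387, 10462, 5549 and 1989 genes in all, in that order. Without them it called 0, 121, 4580, 6663, 2331 and 12. An unadjusted p under 0.05 with a 2-fold change gave 3 members for SBR and 1 for WUSTL0717 against sham in the duodenum, 0 for the latter and 1 for SBR in the liver, and 2 for the regional difference of the SBR effect. This rule took in 1817, 1885, 467, 1204 and 1986 genes in all, in that order. Centring gave 1 for SBR in the liver, 0 for WUSTL0717 against sham in the liver and 1 between the sham regions, and quantile normalization gave 1 and 0 in the liver. Over all genes, the calls were 7825, 3120 and 2020 with centring and 7835 and 3189 with quantile normalization, in the same order. The unmoderated test gave 0 between the sham regions and 0 for WUSTL0717 against sham in the liver, and using only the compared groups gave 1 between the sham regions. Here 1057, 5737 and 1420 genes were called in all, in that order.

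Centring turned *Rnf43* to 0.14 in the treated duodenum against sham, *Smoc2* to -0.017 and *Znrf3* to -0.01 after SBR in the ileum, *Lgr5* to -0.050 after SBR and -0.12 with WUSTL0717 against sham in the liver, *Rnf43* there to -0.053, *Ascl2* between sham regions to 0.051 and *Rnf43* in the SBR interaction to -0.070. Quantile normalization gave -0.029 for *Smoc2* and -0.026 for *Znrf3* after SBR in the ileum, -0.074 and -0.11 for *Lgr5* in the 2 liver comparisons with sham and -0.039 for *Rnf43* with WUSTL0717. Library weights gave -0.011 for *Axin2* with WUSTL0717 in the ileum. With the replicate number as a block, *Znrf3* after SBR in the ileum was -0.0030, and the block changed no number of members called. Correlations of the deviations of same-numbered libraries ran from -0.32 to 0.45. In no comparison were all of them over 0.1, so the numbers were not treated as pairs, although between the sham regions they ran from 0.070 to 0.45.

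Leaving out 1 library gave 1 to 3 called members for SBR in the liver (3 without SBR vehicle library 2), 0 to 1 for WUSTL0717 against sham in the liver and 1 to 3 between the sham regions. Over all genes these fits called 5399 to 9010, 2456 to 4875 and 1257 to 1836, in that order. Leaving out 1 library also changed the sign of some small differences. In the duodenum these ranged from -0.073 to 0.49 for *Rnf43* after SBR, from -0.16 to 0.012 for *Lgr5*, -0.048 to 0.75 for *Smoc2* and -0.11 to 0.37 for *Znrf3* with WUSTL0717 against vehicle, and from -0.44 to 0.13 for *Rnf43* with WUSTL0717 against sham. In the ileum the ranges after SBR were -0.50 to 0.022 for *Olfm4*, -0.063 to 0.18 for *Smoc2*, -0.065 to 0.28 for *Axin2* and -0.044 to 0.28 for *Znrf3*. With WUSTL0717 against vehicle they were -0.47 to 0.048 for *Smoc2* and -0.38 to 0.19 for *Rnf43*, and against sham -0.22 to 0.11 for *Lgr5* and -0.41 to 0.11 for *Smoc2*. In the WUSTL0717 interaction they were -0.019 to 0.25 for *Ascl2* and -0.020 to 0.55 for *Rnf43*. For SBR in the duodenum the number of all genes called was 0, against 96 with centring, 34 with quantile normalization, 2497 with library weights and 589 without SBR vehicle library 1. Low values are limited by an unknown depth.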

Other observations

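The 4 members not followed in the liver are given as values. *Smoc2* was listed at 1.99 to 2.72 in sham livers, at 3.90 to 4.74 in SBR vehicle livers and at 3.36 to 4.12 in treated SBR livers. Its log2 fold change was 1.96 (SE 0.15, limma adjusted p = 3.36e-08) after SBR and -0.59 (SE 0.15, limma adjusted p = 0.0369) with WUSTL0717 against vehicle, and 1.37 (SE 0.17, limma adjusted p = 4.47e-05) with WUSTL0717 against sham. *Znrf3* was 1.33-fold higher after SBR (log2 fold change of 0.41, SE 0.12, limma adjusted p = 0.0105) and had a log2 fold change of 0.37 (SE 0.13, limma adjusted p = 0.0455) with WUSTL0717 against sham. *Ascl2* was listed at 1.09 to 1.28 in sham, 1.19 to 1.57 in SBR vehicle and 1.09 to 1.18 in treated SBR livers, with a log2 fold change of 0.24 (SE 0.08, limma adjusted p = 0.0253) after SBR and of -0.26 (SE 0.08, limma adjusted p = 0.0876) with WUSTL0717 against vehicle. *Olfm4* had a log2 fold change of -0.16 (SE 0.17, limma adjusted p = 0.469) after SBR. Limma called 41.9% of all genes after SBR, 28.8% with WUSTL0717 against sham and 4.1% against vehicle. Relative to the median of all genes after SBR, the differences were 1.72 for *Smoc2*, 0.16 for *Znrf3*, -0.41 for *Olfm4* and -0.0020 for *Ascl2*. With WUSTL0717 against sham they were 1.10 for *Smoc2* and 0.097 for *Znrf3*. *Olfm4* shared its lowest liver value across 10 of 18 livers and *Ascl2* across 6 of 18.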
